A study of Homo sapiens with 3 samples.

Results

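The clustered protocadherin genes lie side by side on human chromosome 5, and their locus was examined for peaks of PRCC-TFE3, the fusion of PRCC with the transcription factor TFE3 that is found in TFE3-rearranged renal cell carcinoma. The locus was taken as chr5:140160000-140895000 (735 kb, build hg19). It was divided into an alpha part (chr5:140160000-140395000, 235 kb), a beta part (chr5:140395000-140650000, 255 kb) and a gamma part (chr5:140650000-140895000, 245 kb). A peak belonged to the locus when its summit (narrowPeak lists) or its midpoint (BED lists) lay inside it. Of the 338288 peaks in the 4 ChIP lists, 37 met this rule. They were 12 narrowPeak and 9 BED peaks of replicate 1 and 9 narrowPeak and 7 BED peaks of replicate 2. Both kinds of list describe the same libraries, so a narrowPeak peak and a BED peak at one place are not separate evidence.

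To map where the fusion is bound, chromatin immunoprecipitation sequencing (ChIP-seq) was performed in HK-2 cells. HK-2 is an immortalised human cell line from the proximal tubule of the kidney, here with an HA-PRCC-TFE3 construct inducible by doxycycline. The labels give the construct this name, whereas the ChIP-seq methods of the study call it HA-TFE3, and the name of the labels is used here. Every library came from cells treated with 0.2 µg/mL doxycycline for 24 h. The samples were HA-PRCC-TFE3 replicate 1, HA-PRCC-TFE3 replicate 2 and 1 input DNA library, which also came from doxycycline-treated cells. The fusion was supplied from the inducible construct rather than from a rearranged chromosome, and whether the line was a single clone is not given in the sources used here. Uninduced cells were not analysed here, and background was read from input DNA alone. The libraries held an estimated 12235754 tags (replicate 1), 7418533 tags (replicate 2) and about 21700000 tags (input DNA). With a single ChIP group of 2 libraries there is no second group to test against, and an exact permutation test over 2 libraries cannot give a p below 0.5. All values are therefore given for each replicate, and the intervals beside them cover counting error only. The intervals on counts and densities take peaks as independent of one another, and clustering of peaks along the genome would make them too narrow.

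Clustered protocadherins are cadherin-family adhesion proteins of the cell surface that bind copies of themselves on neighbouring cells. They are best known from the nervous system, where each neuron uses its own combination and so tells its own branches from those of other neurons. In the alpha and gamma families, each variable exon has its own promoter and is spliced to constant exons shared by the family, whereas the beta genes are single-exon genes without such constant exons. TFE3 is a basic helix-loop-helix leucine zipper factor of the MiT/TFE family, whose members bind E-boxes and the related M-box. In the RefSeq table of GRCh38.p14, 53 protein-coding genes of the locus carry a clustered protocadherin symbol, namely 15 alpha, 16 beta and 22 gamma genes. Other protein-coding genes lie among them, namely SLC25A2, a mitochondrial carrier of basic amino acids, and TAF7, a subunit of the general transcription factor TFIID. ZMAT2 precedes the array, and DIAPH1, a formin that nucleates actin filaments, follows it.

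Because the locus has so many promoters, the promoter sequences themselves were examined for the letters that TFE3-family factors are known to bind. RefSeq promoter windows of GRCh38.p14 (250 bases before to 50 bases after the start) were matched by symbol for 13 of 15 alpha genes, 14 of 16 beta genes and 20 of 22 gamma genes, which gave 13, 14 and 25 windows. Both strands were read. Each motif was read as a fixed pattern of letters, and other forms of it were not searched for. Only a core was read for the CTCF motif. A window without a match may therefore still hold a site of the factor, and the absence of CTCF sites was not tested. The M-box TCATGTG was present in 7 of 13 alpha windows (53.8%), in 1 of 14 beta windows (7.14%) and in 0 of 25 gamma windows, against 1026 of all 35116 windows (2.92%). The E-box CACGTG was present in 3 alpha windows (23.1%; PCDHA9, PCDHA10 and PCDHA11) and in no beta or gamma window, against 7.26% of all windows. Its longer form TCACGTG, which contains CACGTG, was present in PCDHA9 and PCDHA11 and in 3.71% of all windows. The AP-1 letters TGANTCA were found in 1 gamma window (PCDHGA11; 7.71% of all windows), and a core of the CTCF motif was found in 1 beta window (PCDHB9; 2.41% of all windows). The 7 M-box windows of the alpha genes are related in sequence and are not independent of one another. From the M-box on, all 7 read CACATGATGTCGCT, and the first base of this run lay 48 to 91 bases before the start. Whether this run is part of a site of another factor, such as CTCF, was not tested. The share of alpha windows with an M-box is therefore not a count of TFE3 sites. The bases around an M-box or E-box of each window that held one are printed on the plus strand because the M-box recurs in the alpha genes within one shared stretch. Capitals mark the M-box, which reads CACATGA on this strand, or the E-box in the case of PCDHA9, PCDHA10 and PCDHA11.
PCDHA1 (chr5:140786072-140786118): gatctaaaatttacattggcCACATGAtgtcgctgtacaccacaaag
PCDHA2 (chr5:140794767-140794813): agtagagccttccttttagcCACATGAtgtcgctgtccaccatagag
PCDHA4 (chr5:140806965-140807011): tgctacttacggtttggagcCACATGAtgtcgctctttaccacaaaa
PCDHA5 (chr5:140821528-140821574): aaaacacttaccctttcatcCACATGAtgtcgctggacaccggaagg
PCDHA7 (chr5:140834158-140834204): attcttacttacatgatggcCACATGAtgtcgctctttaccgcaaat
PCDHA8 (chr5:140841116-140841162): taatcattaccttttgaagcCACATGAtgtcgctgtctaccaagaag
PCDHA12 (chr5:140875230-140875276): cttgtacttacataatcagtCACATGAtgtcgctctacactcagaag
PCDHA9 (chr5:140848273-140848318): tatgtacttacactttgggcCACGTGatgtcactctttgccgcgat
PCDHA10 (chr5:140855677-140855722): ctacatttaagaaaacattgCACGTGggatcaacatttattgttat
PCDHA11 (chr5:140868817-140868862): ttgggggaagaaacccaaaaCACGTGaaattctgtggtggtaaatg
PCDHB16 (chr5:141182193-141182239): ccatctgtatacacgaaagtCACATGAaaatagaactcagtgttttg
PCDHA9 carried its E-box at the same place in this stretch and differed from the 14 shared bases at 2 positions. PCDHB16 shared only the 7 bases of the M-box itself. These positions are in GRCh38.p14, whereas the peaks are in hg19, and no promoter was placed against a peak by coordinate, and a match of letters is not a bound site.

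Peaks were fewer in the locus than in the sequence on either side of it. In replicate 1, the locus held 12 narrowPeak peaks, or 16.3 per Mb (exact 95% Poisson interval 8.44 to 28.5). The 1 Mb before it held 63 and the 1 Mb after it held 52, or 57.5 per Mb in both flanks together (47.5 to 69.0). In replicate 2, the locus held 9 narrowPeak peaks, or 12.2 per Mb (5.60 to 23.2), against 46 before and 39 after, or 42.5 per Mb (33.9 to 52.6). The density of the locus was thus 0.284 times that of its flanks in replicate 1 (exact 95% interval 0.143 to 0.515) and 0.288 times in replicate 2 (0.127 to 0.573). At the density of the flanks, 42.3 and 31.2 peaks would have fallen in a stretch of this length. The BED lists gave 9 against 99 peaks in replicate 1 (ratio 0.247, 0.110 to 0.489) and 7 against 72 in replicate 2 (ratio 0.265, 0.103 to 0.574). Input DNA had 286 peaks in the genome and 0 in the locus or its flanks.

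**Figure D1:**
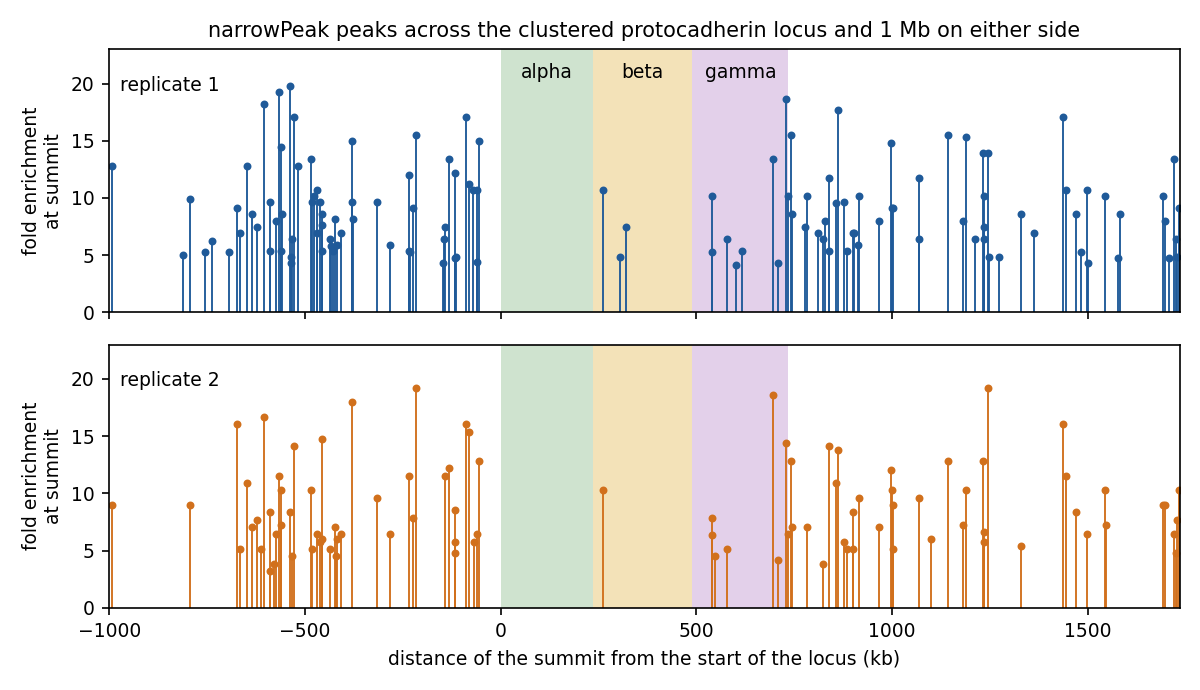
Fold enrichment at the summit of every narrowPeak peak (vertical axis, ratio) against the distance of the summit from the start of the locus in kb (horizontal axis), for replicate 1 (upper panel) and replicate 2 (lower panel), with the alpha, beta and gamma parts shaded. The alpha part is empty in both panels, whereas the 115 and 85 flanking peaks stand close together on both sides.

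Both flanks were rich in peaks. Over chromosomes 1 to 22 and X, the narrowPeak lists held 37.0 (replicate 1) and 27.6 (replicate 2) peaks per Mb, and over chromosome 5 they held 26.6 and 19.0 per Mb. The flanks thus lay above the genome and the locus as a whole below it. This did not hold for the gamma part on its own. At 36.7 and 32.7 peaks per Mb, it was close to the genome in replicate 1 and above it in replicate 2, and above chromosome 5 in both. When the genome was divided into windows of 735 kb, the median window held 22 peaks in replicate 1 and 16 in replicate 2. No more peaks than in the locus were found in 32% of 4000 windows in replicate 1 and in 35.9% of 3998 windows in replicate 2. A count of 12 or 9 peaks per 735 kb was therefore common in these lists. The locus was sparse beside its neighbours rather than among all windows.

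**Figure D2:**
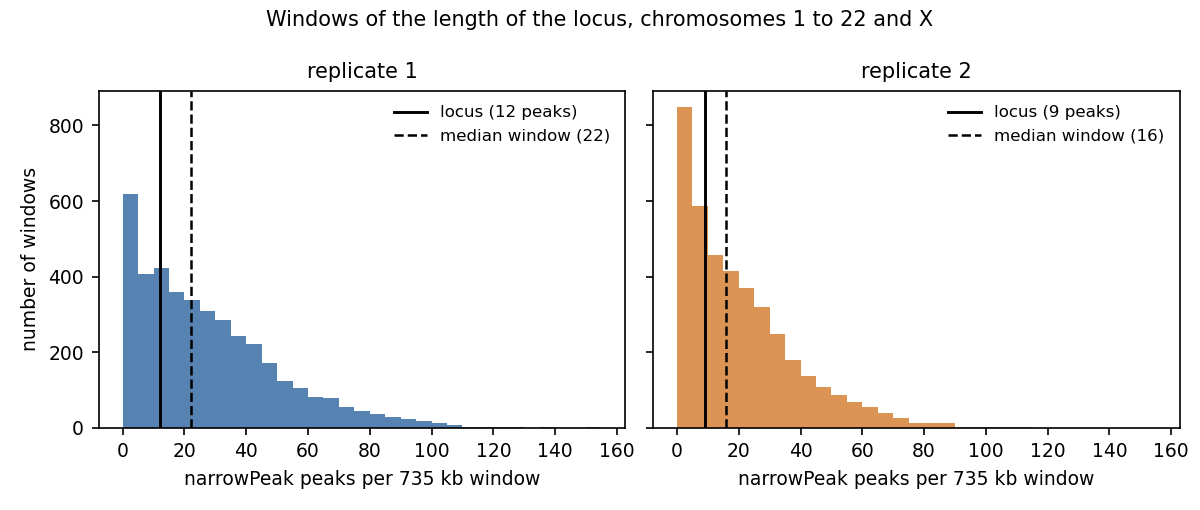
Number of windows of 735 kb (vertical axis) by the narrowPeak peaks they hold (horizontal axis) on chromosomes 1 to 22 and X, in replicate 1 (left) and replicate 2 (right). The solid line marks the locus (12 and 9 peaks) and the dashed line the median window (22 and 16 peaks), and the locus lies to the left of the median within the bulk of the windows.

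The 3 parts of the locus held different numbers of peaks. The parts are stretches of hg19, whose borders were not checked against an hg19 annotation, so a count for a part is not a count for the genes of a family. No peak of any list lay in the alpha part, where 13.5 peaks of replicate 1 and 9.99 peaks of replicate 2 would have fallen at the density of the flanks. A count of 0 in 235 kb allows up to 15.7 peaks per Mb (upper end of the exact 95% Poisson interval). The ratio of the alpha part to the flanks has its own exact 95% interval, which reached up to 0.277 (replicate 1) and 0.377 (replicate 2). The beta part held 3 narrowPeak peaks in replicate 1 (11.8 per Mb, 2.43 to 34.4) and 1 in replicate 2 (3.92 per Mb, 0.0993 to 21.8). Its ratio to the flanks was 0.205 (0.0416 to 0.613) and 0.0923 (0.00231 to 0.528). Most of the peaks of the locus were in the gamma part. It held 9 in replicate 1 (36.7 per Mb, 16.8 to 69.7) and 8 in replicate 2 (32.7 per Mb, 14.1 to 64.3). The gamma density was 0.639 times that of the flanks in replicate 1 (0.285 to 1.26) and 0.768 times in replicate 2 (0.321 to 1.58), and both intervals include 1, so a difference between the gamma part and the flanks was not detectable at these counts.

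**Figure D3:**
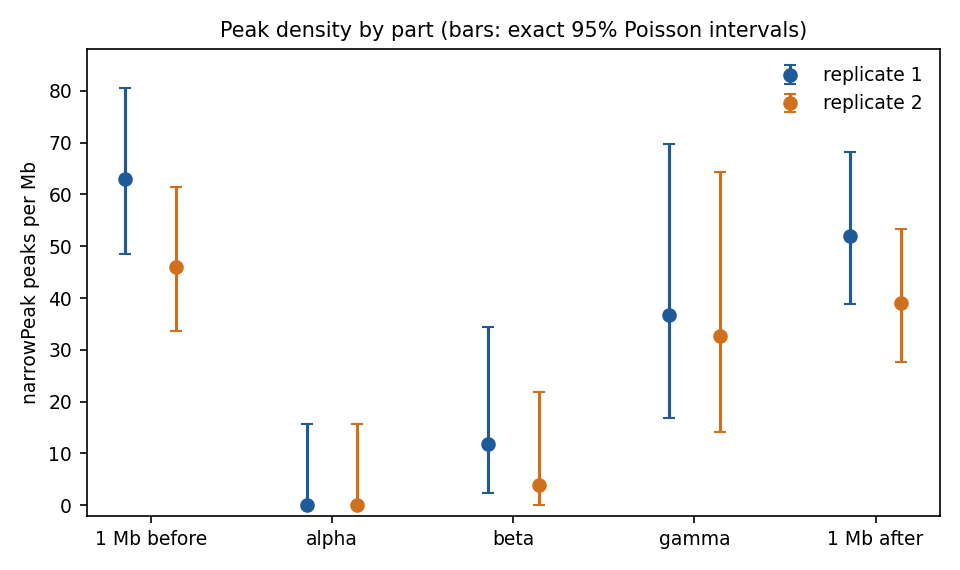
NarrowPeak peaks per Mb (vertical axis) in the 1 Mb before the locus, its alpha, beta and gamma parts and the 1 Mb after it, for replicate 1 (blue) and replicate 2 (orange), with bars for exact 95% Poisson intervals. The alpha part is at 0 in both replicates, and the gamma part lies at 36.7 and 32.7 peaks per Mb with intervals that reach those of the flanks.

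The empty alpha part belonged to a longer stretch without any narrowPeak peak of either replicate, chr5:140106098-140420640 (315 kb). This stretch began 53.9 kb before the locus, ran through the whole alpha part and ended 25.6 kb into the beta part. Its borders were shared by both replicates. The last peak before it had a fold of 14.98 in replicate 1 and 12.8 in replicate 2, and the first peak after it had a fold of 10.7 and 10.3. Among the 117613 stretches between neighbouring regions of the 2 lists in the genome, 870 (0.74%) were at least as long. The median length of all these stretches was 7.51 kb, and the longest in the flanks was 181 kb. The 0.74% is a share by number, in which many short stretches count as much as long ones. It is not a share of the genome's length. By windows of 235 kb, shorter than this stretch, 15% of 12532 windows held no narrowPeak peak of replicate 1. For replicate 2 alone, 19.7% of 12529 windows held none. These shares have unlike units and cannot be set against the 0.74%. The BED lists left nearly the same stretch empty (chr5:140105797-140420730). Another long stretch without a narrowPeak peak, chr5:140480182-140699747 (220 kb), covered 170 kb of the beta part and 49.7 kb of the gamma part, and 1.32% of all stretches were as long. The longest stretch that lay wholly in the gamma part was chr5:140777551-140855216 (77.7 kb).

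Related genes can share sequence, so the uniqueness of the locus was measured on the reference. In GRCh38, 97.4% of all stretches of 75 bases (the number of sequencing cycles) in the segment of the alpha genes occurred once in the genome. The same share was 94.0% for the beta genes, 97.7% for the gamma genes, 98.3% for the 1 Mb before the array and 98.6% for the 1 Mb after it. The share was lowest in the beta segment. GC content was 40.1% in the alpha, 40.2% in the beta and 45.0% in the gamma segment, against 44.2% before and 46.2% after the array. These segments run from the first to the last gene of each family in GRCh38 and are shorter than the parts of hg19 in which peaks were counted. Their ends were not carried over to hg19, so no peak count belongs to a segment, and the part of uniqueness or GC content in the counts was not tested.

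Next, the narrowPeak peaks of both replicates were merged where they overlapped by at least 1 bp. This gave 13 regions in the locus, of which 8 (61.5%, Wilson 95% interval 35.5 to 82.3) had a peak of each replicate. The share over all 117702 regions of the genome was 59.8%, and it was 62.3% (76 of 122) in the flanks, so the locus was near the background. Of the 5 other regions, 4 had a peak of replicate 1 alone and 1 had a peak of replicate 2 alone. With the BED lists, 7 of 9 regions were shared, against 60.4% in the genome. Counted by peaks, 8 of 12 peaks of replicate 1 overlapped a peak of replicate 2 (65.3% over the whole list), and 8 of 9 peaks of replicate 2 overlapped one of replicate 1 (88.5%). A BED peak of the same library overlapped 9 of 12 peaks in replicate 1 (74.6% over the whole list) and 7 of 9 in replicate 2 (74.9%). In the 8 shared regions the summits of both replicates lay 7 to 62 bp apart, with a median of 27.5 bp.

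The beta part had 1 shared region, chr5:140420641-140421026 (386 bp), which was also the first region after the empty stretch. Its fold enrichment was 10.7 in replicate 1 and 10.3 in replicate 2. Its BED peaks held 21 and 15 tags, or 17.2 and 20.2 tags per 10000000 tags of the library, and 0 input tags. Both replicates therefore gave it nearly the same height, above 70.2% of all narrowPeak peaks by fold in replicate 1 and above 70.4% in replicate 2. Both other beta regions were found in replicate 1 alone. The one at chr5:140479836-140480181 had a fold of 7.49 and a BED peak of 14 tags, and the one at chr5:140464074-140464254 had a fold of 4.81 and no BED peak.

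The gamma part had 7 shared regions among 10. The highest of them by the lower fold of both replicates was chr5:140888491-140889156 (666 bp), 6.18 kb before the end of the locus. Its fold was 18.7 in replicate 1 and 14.4 in replicate 2. Its BED peaks held 44 and 24 tags, or 36.0 and 32.3 tags per 10000000. In replicate 1 this was more than in any BED peak of the flanks, where the highest count was 38 tags. In replicate 2 the highest count of the flanks was 31 tags.

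The region chr5:140855217-140855652 (436 bp) lay 39.6 kb before the end of the locus. It was 1 of 2 shared regions whose fold was higher in replicate 2. Its fold was 13.4 in replicate 1 and 18.6 in replicate 2, and its BED peaks held 25 and 28 tags, or 20.4 and 37.7 tags per 10000000. These 2 regions were the highest of the locus in both replicates, although their order was reversed between the replicates.

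The other 3 named gamma regions were lower. The region chr5:140700279-140700571 (293 bp) had a fold of 10.2 in replicate 1 and 7.82 in replicate 2, with 19 and 12 tags. Only 0.154 kb before it lay chr5:140699748-140700124 (377 bp), with a fold of 5.30 and 6.37 and with 10 and 8 tags. This pair held the first peaks of the gamma part after the second long empty stretch. Whether it lies at a protocadherin gene or at another gene of the array, such as TAF7, was not examined. The region chr5:140893240-140894584 had a fold of 10.2 and 6.42, with 18 and 10 tags. At 1345 bp it was the widest of the locus and lay 1.09 kb from its end, so it is a member only by a narrow margin. The last peaks inside the locus had a fold of 10.2 and 6.42, and the first peaks outside, with summits 5.985 and 5.929 kb beyond its end, had a fold of 15.5 and 12.8.

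The remaining gamma regions were lower by the lower fold of both replicates or were found in 1 replicate alone. In replicate 1, some of them had a higher fold than the 5.30 of the lowest named region. Both other shared regions were chr5:140739373-140739611, with a fold of 6.42 and 5.13, and chr5:140868369-140868868, with a fold of 4.31 and 4.21 and no BED peak in either replicate. The 3 regions of 1 replicate alone had a fold of 4.18 and 5.35 in replicate 1 and of 4.49 in replicate 2. All 3 lay below the median fold of their list (7.49 and 7.32).

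**Figure D4:**
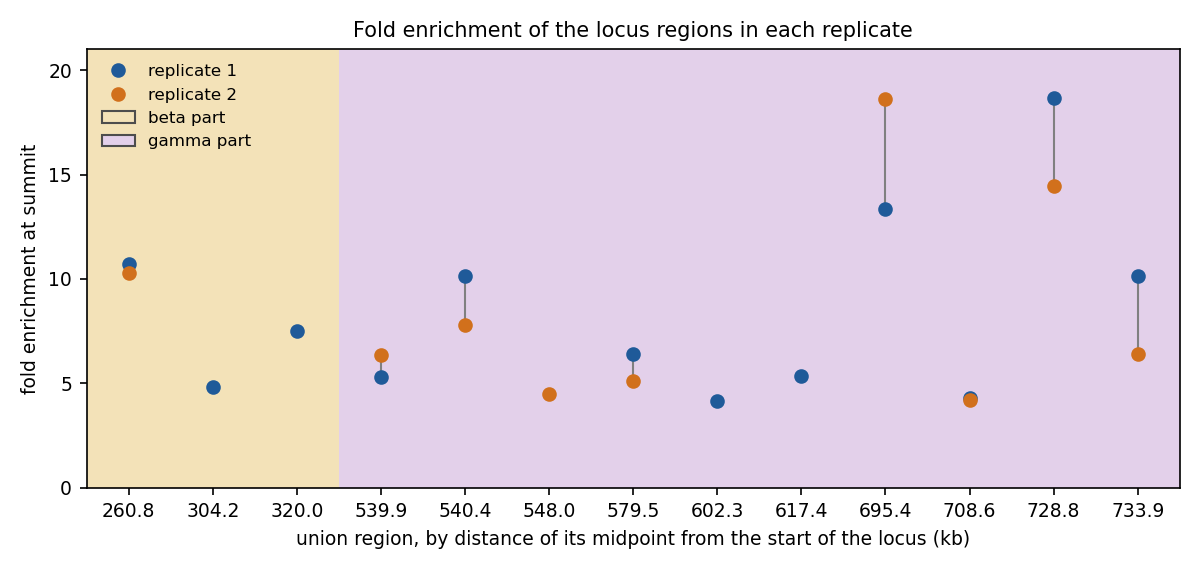
Fold enrichment at the summit (vertical axis, ratio) of the 13 regions of the locus in replicate 1 (blue) and replicate 2 (orange), placed in order along the locus and labelled with the distance of the region's midpoint from the start of the locus in kb, with a line joining the replicates of a shared region. The 2 highest regions lie at 695.4 and 728.8 kb, in the gamma part, and the 5 regions with a single point were found in 1 replicate.

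Fold was higher in replicate 1 in 6 of the 8 shared regions and in replicate 2 in 2 of them. The 7 shared regions with a BED peak in both replicates held 149 tags in replicate 1 and 104 in replicate 2. Replicate 2 thus gave 41.1% of these tags (Wilson 95% interval 35.2 to 47.3), while it held 37.7% of the tags of both libraries. The interval includes the latter share, so scaled to depth the replicates did not differ beyond counting error over the sum of these regions.

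To compare the height of the peaks rather than their number, fold and tags per peak were set beside those of the flanks. The median fold of the locus peaks was 6.95 against 8.56 in the flanks in replicate 1, and 6.42 against 8.34 in replicate 2, a ratio of 0.791 as the mean of both replicates that turned to 1.38 with the BED fold over input and to 1.06 among peaks with q below 1e-05. The ranges from the lower to the upper quartile overlapped widely (5.18 to 10.3 in the locus and 6.32 to 10.7 in the flanks of replicate 1), and over all peaks the medians were 7.49 and 7.32. The direction of the difference in fold therefore depended on the fold measure and on the q limit. In the BED fold over input, 0 input tags stand as a fixed low value. Such peaks were 88.9% of the locus and 53.5% of the flanks in replicate 1, and 71.4% and 61.1% in replicate 2. The BED fold over the local signal gave no common direction. Its median was 15.97 in the locus and 15.69 in the flanks in replicate 1, and 17.87 and 20.4 in replicate 2. At q below 1e-05 there were 9 of 12 locus peaks in replicate 1 (82.4% over the whole list) and 6 of 9 in replicate 2 (78.2%).

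The median number of tags per BED peak gave no common direction. It was 18 tags in the locus and 16 in the flanks in replicate 1, and 12 and 13.5 tags in replicate 2, against 17 and 13 over all BED peaks. The locus was thus above its flanks in replicate 1 and below them in replicate 2. Summed over the peaks and scaled to 1 Mb and to 10000000 tags, the locus held 192 tags against 734 in the flanks in replicate 1 (ratio 0.262) and 191 against 717 in replicate 2 (ratio 0.266). The mean number of tags per peak was 19.2 and 18.1 in replicate 1 and 14.9 and 14.8 in replicate 2, so these ratios lay close to the ratios of the peak counts. The sum counts only tags inside called peaks, and tags outside peaks were not analysed here.

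Finally, the input tags under the BED peaks were counted as the background of each. In the locus, 1 input tag lay under the 9 peaks of replicate 1 (0.111 per peak, exact 95% Poisson interval 0.00281 to 0.619) and 2 under the 7 peaks of replicate 2 (0.286 per peak, 0.0346 to 1.03). In the flanks there were 0.576 (0.436 to 0.746) and 0.556 (0.397 to 0.757) input tags per peak. No input tag was present under 8 of 9 locus peaks in replicate 1 (46.1% over the whole list) and under 5 of 7 in replicate 2 (46.9%). The intervals overlapped, and the same input library entered both counts, so the replicates are not independent in this measure. A fold over input with 0 input tags rests on the ChIP tags alone.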

How the data were processed

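The authors called peaks for each library separately. The methods name MACS in Strand NGS against input DNA and 75 sequencing cycles, and the submitters' processing notes name hg19. The aligner, the treatment of reads with several matches and that of duplicates are not given in the sources used here. The deposited narrowPeak lists hold a fold ratio at the summit, a −log10 p and q, and a score, which was not used. The deposited BED lists have a displaced header and the column order of HOMER, a tool the sources do not name. They were read by position: in these deposited lists each peak has a raw, unscaled count of its tags, a signal that scales this count to 10000000 tags, a scaled input signal, fold ratios, p-values and a peak score. Library totals were recovered as tags divided by the deposited signal per 10000000. The p-values and the score were not used. Per the methods, binding sites had a stringent p-value limit whose printed form is ambiguous, so the numbers describe the deposited lists.

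Peaks were assigned by summit or midpoint, and counts were compared with 1 Mb on either side in Python 3.11.15 (pandas 2.3.3, numpy 2.4.6, scipy 1.17.1). Counts have exact Poisson intervals, ratios of counts intervals from the exact binomial (Clopper-Pearson) and shares Wilson intervals. Windows tiled each chromosome without overlap from its first to its last peak, centromeres included. In 15 of 24 chromosomes a peak lay beyond the end of the hg38 chromosome. No hg19 genome or annotation was used here, so peaks were neither given genes nor searched for motifs, and the motif letters were read in RefSeq promoter windows instead. Sites named were, in each part, the 5 shared regions with the highest lower fold of both replicates (all where 5 or fewer), other regions and the widest empty stretches being added to account for every member. The locus, lists and motifs were chosen with earlier results of these data known. Counting, merging and matching were tested on simulated data. The libraries are labelled 1 and 2, and the study calls them biological replicates.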

Additional observations from a re-analysis of the deposited data

How the results depend on the processing

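No paired analysis was possible because the ChIP libraries form a single group and the label of input DNA carries no replicate number. The alpha part stayed at 0 peaks in both replicates with the BED lists. A limit of q below 1e-05 and narrowPeak lists of equal length only remove peaks, so its count of 0 could not change with them. The density ratio of locus to flanks (mean of replicates 0.286) was 0.256 with the BED lists, 0.234 at q below 1e-05, 0.249 with lists of equal length, 0.240 with 0.5 Mb flanks, 0.271 with 2 Mb flanks, 0.263 against the flank before and 0.314 against the flank after the locus. With 2 replicates, leaving 1 out gives the value of the other alone, so these ranges restate the replicates and are no added check. The density ratio was then 0.284 to 0.288 and the tag density ratio (0.264) was 0.262 to 0.266. The ratio of median tags (1.01) was 0.889 to 1.13 and the fold ratio (0.791) was 0.769 to 0.813. The ratio of input tags per peak (0.354) was 0.193 to 0.514. With 0.5 Mb flanks the tag density ratio was 0.218. The fold ratio turned to 1.38 with the BED fold over input and to 1.06 at q below 1e-05, and the cause was not tested. With lists of equal length, replicate 1 held 7 peaks in the locus and 5 in the gamma part, and at q below 1e-05 replicate 2 held 5 in the gamma part. With the BED lists, an alternative chosen after seeing the data, 17.2% (replicate 1) and 22.8% (replicate 2) of windows as long as the alpha part were empty. The number of shared regions (8) was 6 to 8 under the alternatives for lists and overlap. Motifs under the peaks were not run. Replicate 2 had the smaller library, and with 9 and 8 peaks the intervals of the gamma part were too wide to tell its density from that of the flanks.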
